A study of Mus musculus with 10 samples.

Results

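YAP and its partner TAZ are transcriptional co-activators that have no DNA-binding domain of their own and reach their target genes mainly through the TEAD factors, which bind a short CATTCC-type motif. The Hippo kinases LATS1 and LATS2 phosphorylate YAP and hold it out of the nucleus, and several genes that YAP and TEAD switch on encode proteins that feed back on this brake. In the colon the pathway is known for its transient activity while the epithelium repairs an injury. The 10 genes described here are known YAP/TEAD targets of 4 kinds. Ccn1 (Cyr61) and Ccn2 (Ctgf) encode secreted matricellular proteins, and Ankrd1 encodes an ankyrin-repeat protein of the nucleus and muscle sarcomere. Amotl1 and Amotl2 (angiomotin-like scaffolds that bind YAP), Ajuba (a LIM protein that restrains the LATS kinases), Lats2 itself and Wwc2 (a scaffold of the KIBRA family) belong to the Hippo pathway. Axl encodes a receptor tyrosine kinase and Tnfrsf12a encodes the TWEAK receptor Fn14.

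Open chromatin was mapped in sorted live cells of mouse colon organoids with Omni-ATAC-seq, in which a transposase cuts accessible DNA. The organoids came from wildtype littermates (WT) or from mice that lack the aryl hydrocarbon receptor in the intestinal epithelium through Vil-Cre and floxed alleles of Ahr (AHR KO), all on C57BL/6. WENR medium held EGF, Noggin, R-spondin1 and Wnt3a-conditioned medium with further supplements, and d4 ENR organoids had been in ENR alone for 4 days, without Wnt3a and those supplements. The 10 libraries were 2 WT and 3 AHR KO in WENR and 3 WT and 2 AHR KO in d4 ENR. All groups shared Matrigel culture and the ENR base medium, and no source used here states that libraries with the same replicate number share an organoid line, so the spread between libraries may be partly technical.

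Each gene was taken with 5 kb on each side of its body, and peaks of the 10 lists that shared 1 bp or more were merged into regions. The windows held 42 of the 85680 regions of the whole series, numbered within each gene by position. Of these, 10 lay at a promoter of their own gene (from 1 kb before to 100 bp after an annotated transcription start), 2 at the promoter of another gene inside the window and 30 elsewhere (distal). Of the 42 regions, 17 were called in all libraries, against 32.9% of all regions, and these were 8 promoters, 1 promoter of another gene and 8 distal sites. With promoter windows of 3 kb on each side of a start, some of these 8 distal sites change class. Ccn2 region 1, Amotl2 regions 3 and 4 and Lats2 region 5 become promoters of their gene. Ccn1 region 3 becomes a promoter of another gene. The number of member regions with a peak was 30 to 37 in WENR, 19 to 25 in WT d4 ENR and 26 and 30 in AHR KO d4 ENR. The share of all regions with a peak was ordered in the same way, from 70.9% to 75.7% in WENR, 37.8% to 60.8% in WT d4 ENR and 56.4% and 66.0% in AHR KO d4 ENR.

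The libraries differed in ways that bear on every value below. They held 30354729 to 49126792 fragments, and the share of coverage that fell in peaks was 63.0% to 68.6% in WENR, 14.1% to 30.9% in WT d4 ENR and 33.8% and 44.2% in AHR KO d4 ENR. WT d4 ENR replicate 1 stood apart with the lowest share and the fewest peaks (33433). The mean fragment was 235 to 255 bp long in WENR, 156 to 200 bp (WT) and 202 and 221 bp (AHR KO) in d4 ENR. Both quantities separated the genotypes in d4 ENR, and their part in the results was not tested. Promoters of all 8 colon epithelial marker genes had a peak in every library, whereas 0 to 1 of 6 immune and 0 to 1 of 3 neural or glial markers had one in a library. Of 8 stromal or endothelial markers, 5 had one in each WENR library and 2 (Col1a1 and Pdgfra) in each d4 ENR library, with Pdgfrb, Acta2 and Kdr having one in WENR alone, and the part of other cells in the differences between media was not tested. Peaks over Ahr with its flanks covered 2142 and 2544 bp (WT) against 5130 to 7017 bp (AHR KO) in WENR, and 1216 to 1595 bp against 3250 and 3541 bp in d4 ENR, a measure of open chromatin there that does not read the deletion itself.

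The DNA of the target sites is shown first, because these genes are grouped as targets of TEAD-bound YAP. Promoter sequence came from RefSeq (GRCm38.p6, the build of the peak lists), where 9 of the 10 genes have an entry (Ccn2 does not). A TEAD motif was read as ACATTCC or GCATTCC on either strand. In the 250 bases before the start it was present for 5 of the 9 genes, against 5.99% of the 32851 promoters in the table. Ajuba had 2 matches and Wwc2 had 3, and 2 or more were held by 0.237% of the promoters. The genes are known targets, so that count is a description of the choice. Each sequence is on the gene's strand, 5′ to 3′, and capitals mark the TEAD motif. The Ccn1 promoter at chr3:145649986-145650235 (minus strand), the Ajuba promoter at chr14:54577662-54577911 (minus strand) and the Wwc2 promoter at chr8:47990552-47990794 (minus strand) lie just before the start of the coding transcript (for Wwc2, inside a longer retained-intron transcript of the GENCODE annotation), and the short Amotl2 site at chr9:102717727-102717755 (plus strand) lies within its promoter peak.
Ccn1 promoter: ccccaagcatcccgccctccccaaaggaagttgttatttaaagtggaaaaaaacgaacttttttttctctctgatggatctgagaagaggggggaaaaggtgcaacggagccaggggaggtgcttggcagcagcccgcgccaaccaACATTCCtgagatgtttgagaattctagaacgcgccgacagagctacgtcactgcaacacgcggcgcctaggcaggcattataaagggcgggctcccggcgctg
Ajuba promoter: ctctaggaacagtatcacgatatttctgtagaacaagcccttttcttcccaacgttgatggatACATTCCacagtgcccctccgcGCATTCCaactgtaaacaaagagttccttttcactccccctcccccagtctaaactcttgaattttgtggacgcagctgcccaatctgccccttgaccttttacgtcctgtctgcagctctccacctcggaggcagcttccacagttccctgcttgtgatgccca
Wwc2 promoter: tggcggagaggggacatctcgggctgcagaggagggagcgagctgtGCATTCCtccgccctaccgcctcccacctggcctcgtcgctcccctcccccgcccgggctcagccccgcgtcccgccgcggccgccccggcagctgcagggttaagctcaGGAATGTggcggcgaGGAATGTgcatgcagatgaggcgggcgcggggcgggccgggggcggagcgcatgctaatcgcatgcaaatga
Amotl2 promoter site: ctgaaactctcACATTCCtggcatagcag

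Distal sites carried motifs too. An intronic site of Wwc2 (region 7, 58028 bp inside the gene) held 2 TEAD motifs whose starts lie 9 bp apart. They lay in the stretch under a peak in all 10 libraries. A weak intronic site of Lats2 (region 4) held 1, in a stretch under a peak in 9 of the 10 libraries. The 2 windows are chr8:47932495-47932695 and chr14:57711578-57711778, both on the minus strand, with TEAD motifs in capitals.
Wwc2 region 7: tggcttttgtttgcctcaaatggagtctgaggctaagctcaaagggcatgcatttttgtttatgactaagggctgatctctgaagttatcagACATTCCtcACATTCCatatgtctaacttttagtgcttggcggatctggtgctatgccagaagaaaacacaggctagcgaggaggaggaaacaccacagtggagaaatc
Lats2 region 4: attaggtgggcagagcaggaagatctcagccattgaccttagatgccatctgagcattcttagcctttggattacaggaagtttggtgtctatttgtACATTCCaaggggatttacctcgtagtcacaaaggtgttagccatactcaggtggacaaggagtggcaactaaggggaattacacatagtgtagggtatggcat
The site 3327 bp before Ccn2 (region 1) held no TEAD motif but 2 matches of the AP-1 motif TGANTCA, the site of the Fos and Jun factors. The match nearest the middle of the peak is in capitals at chr10:24591878-24592078 (plus strand).
Ccn2 region 1: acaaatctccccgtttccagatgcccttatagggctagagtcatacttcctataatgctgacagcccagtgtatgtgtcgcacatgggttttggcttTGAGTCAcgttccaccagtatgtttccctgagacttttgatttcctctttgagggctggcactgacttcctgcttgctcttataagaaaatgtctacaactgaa
Of the 17 regions called in all libraries, 11 held a TEAD motif somewhere in their length and 6 an AP-1 motif, against 34.5% and 47.1% of all regions of varied length. In 300 bases at the middle of the peaks, 1 of 17 (Wwc2 region 7) held a TEAD motif against 8.32% of 28205 windows, and 1 of 17 (Ccn2 region 1) an AP-1 motif against 16.1%. The core AHR motif TNGCGTG was in 2 of the 17 windows, at the Amotl2 promoter and at Lats2 region 2, against 5.4%.

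Accessibility at each region is given as relative height, the pileup of its highest peak (fragments over a base, averaged along the peak) divided by the library's median over the 28205 regions that all libraries called. A relative height of 1 is thus the height of a middling open region in that library. In bulk organoids, fewer cells with an open site and a less open site in each cell cannot be told apart. Differences in height were tested with limma over the 28205 regions with adjustment by Benjamini-Hochberg. Peak coverage of a whole gene is given as the bases under peaks within its window.

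In WT organoids relative height fell from WENR to d4 ENR at 8 of the 17 member regions, where 13.4% of all regions fell, and it rose at 1, where 25.8% of all regions rose. With fold enrichment in place of pileup (below), 5 of the 8 that fell changed sign. Of these, Ccn1 regions 2 and 3 and Amotl2 region 2 passed limma as rises on that scale. Their log2 differences by fold enrichment were 0.31, 0.28 and 0.30 (limma adjusted p = 0.021, 0.0465 and 0.027). In relative height, the median log2 difference over the 17 was -0.37, beside 0.12 over all regions. In AHR KO organoids 5 of 17 fell (10.7% of all regions) and 1 rose (18.6%), with a median of -0.18 beside 0.06, and 4 of the 5 that fell changed sign with fold enrichment. By covered bases, 7 of the 10 genes were covered by fewer bases in every d4 ENR library than in every WENR library, where 46.2% of 17240 protein-coding genes with a peak were. Those 7 (Ankrd1, Amotl1, Ajuba, Lats2, Wwc2, Axl and Tnfrsf12a) each reached the smallest p that the exact permutation test within genotypes can give, 0.02, adjusted p = 0.0388. Between genotypes in d4 ENR, no member region passed limma, and the 95% intervals stand with each site.

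**Figure D1:**
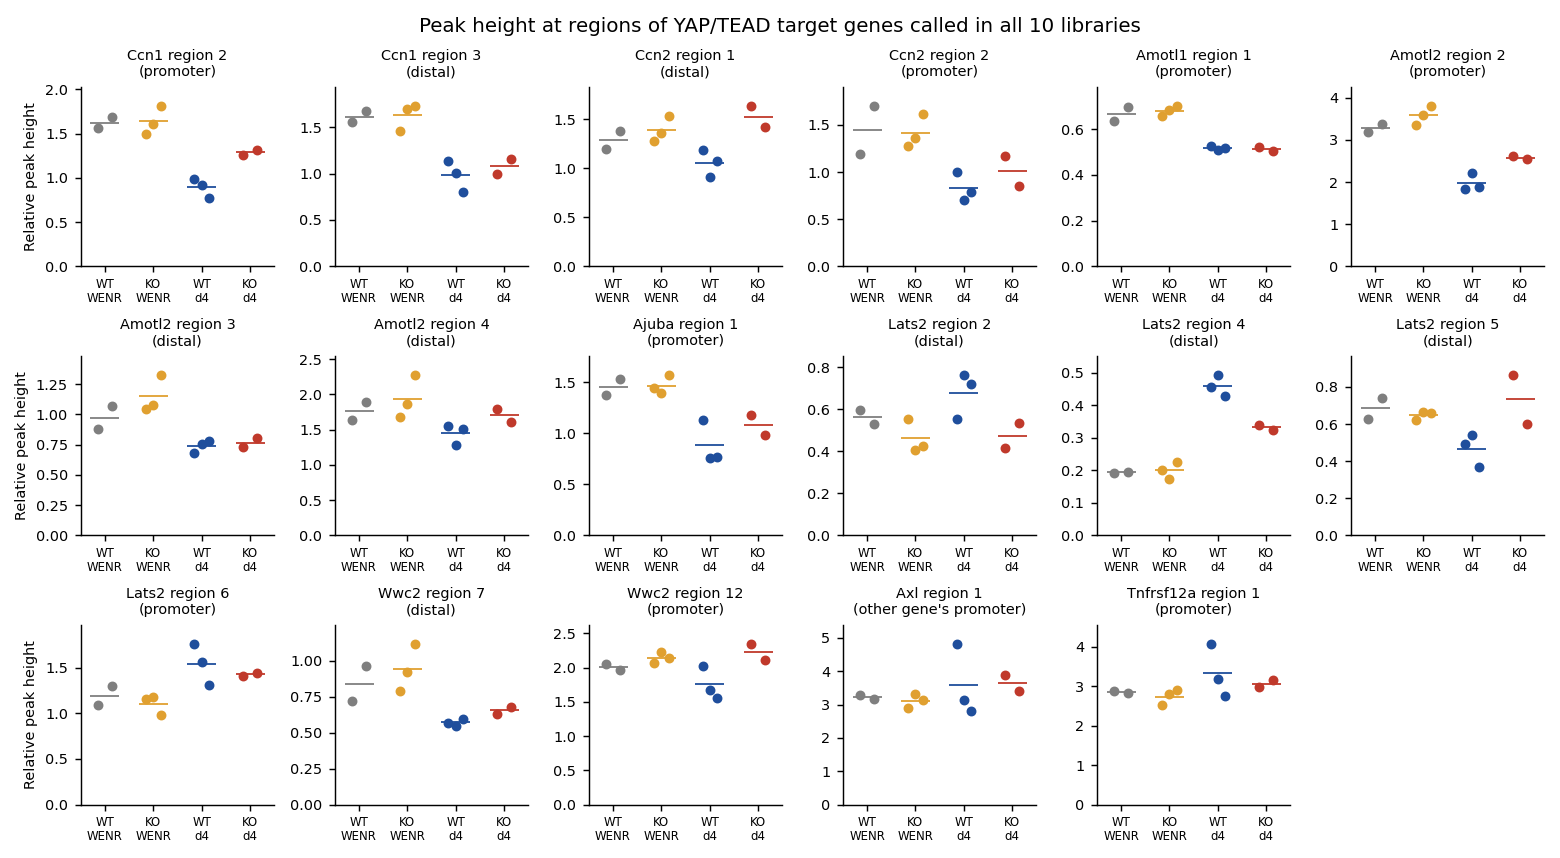
Relative peak height (y axis, pileup over the library's median at common regions) of the 17 regions called in all 10 libraries, by group (WT and AHR KO in WENR, then in d4 ENR). Points are libraries and bars are group means. Ccn1 region 2 and Amotl2 region 2, both promoters, were lower in all d4 ENR than in all WENR libraries, with the 2 AHR KO d4 ENR libraries above the 3 WT ones. On the fold enrichment scale the media were not ordered this way.

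The Ccn1 promoter (region 2, chr3:145649001-145650217) had relative heights of 1.56 and 1.69 in WT and of 1.5, 1.61 and 1.81 in AHR KO in WENR. In d4 ENR they were 0.99, 0.92 and 0.77 in WT and 1.26 and 1.32 in AHR KO. The genotypes overlapped in WENR and were apart in d4 ENR, with both AHR KO libraries between WT d4 ENR and WENR. The fall in WT was -0.87 ± 0.13 (log2 difference ± SE, limma adjusted p = 0.00016), and the difference in AHR KO was -0.35 ± 0.13 (adjusted p = 0.065). The difference between genotypes in d4 ENR was 0.53 ± 0.13 (95% interval 0.25 to 0.82, limma adjusted p = 0.058), and in WENR it was 0.010 ± 0.13. The difference of these differences was 0.52 ± 0.19, with a limma adjusted p of 0.25. On the fold enrichment scale described below the promoter rose from WENR to d4 ENR in both genotypes. Those differences were 0.31 in WT and 0.47 in AHR KO (limma adjusted p = 0.021 and 0.0071).

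The distal site 3420 bp before Ccn1 (region 3, chr3:145653015-145653787) was as high as the promoter in WENR, at 1.56 and 1.67 in WT and 1.46, 1.70 and 1.73 in AHR KO. In d4 ENR it was at 1.14, 1.01 and 0.80 in WT and at 1.0 and 1.16 in AHR KO. Unlike at the promoter, the genotypes overlapped in d4 ENR. It fell in both genotypes, with log2 differences of -0.73 ± 0.15 in WT and -0.59 ± 0.15 in AHR KO (limma adjusted p = 0.0014 and 0.0069). The genotype difference in d4 ENR was 0.14 with a 95% interval of -0.18 to 0.46. By fold enrichment the site rose between media in WT (0.28, limma adjusted p = 0.0465), with a difference of 0.0083 in AHR KO.

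The 2 Ccn2 sites behaved differently from each other. At the promoter (region 2, chr10:24595337-24596844) relative height was 1.2 and 1.7 in WT and 1.27, 1.36 and 1.61 in AHR KO in WENR, and 1.01, 0.71 and 0.79 in WT and 1.17 and 0.85 in AHR KO in d4 ENR. All d4 ENR libraries lay below all WENR libraries, and the genotypes overlapped. The fall passed limma in WT (-0.79 ± 0.19, adjusted p = 0.0040) and not in AHR KO (-0.50 ± 0.19, adjusted p = 0.058).

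The upstream site of Ccn2 (region 1, chr10:24591285-24592945), the one with AP-1 motifs, was at 1.19 and 1.37 in WT and 1.28, 1.35 and 1.53 in AHR KO in WENR. In d4 ENR it was at 1.18, 0.91 and 1.07 in WT and at 1.63 and 1.42 in AHR KO. All WT d4 ENR libraries lay below the WT WENR ones, whereas the AHR KO values of the 2 media overlapped. On the fold enrichment scale described below the order was the opposite, with 3.29 and 3.07 in WT WENR against 3.31, 3.99 and 4.61 in WT d4 ENR, and the site rose in both genotypes (0.48 in WT and 0.67 in AHR KO, limma adjusted p = 0.0035 and 0.0020). The genotype difference in d4 ENR was 0.54 ± 0.14 (95% interval 0.24 to 0.84, limma adjusted p = 0.063), and its difference from that in WENR was 0.43 ± 0.20 (adjusted p = 0.37).

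Ankrd1 had 2 weak sites in WENR and none in d4 ENR. Its promoter (region 2, chr19:36119772-36120392) had a peak in 1 of 2 WT and 3 of 3 AHR KO libraries in WENR, at relative heights of 0.18 in WT and 0.19, 0.27 and 0.37 in AHR KO. A site just beyond its 3′ end (region 1, chr19:36110156-36111224) had a peak in all 5 WENR libraries, at 0.14 to 0.23. Neither had a peak in any d4 ENR library, a pattern that Ankrd1 region 1 shared with 5.46% of all regions. Such an absence means that the height was below what the peak caller could call, and d4 ENR libraries had the lower pileups.

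Among the Hippo scaffolds, Amotl2 had the highest promoter of the 10 genes in WENR and Amotl1 a weak one. The Amotl2 promoter (region 2, chr9:102717087-102719111) was at 3.19 and 3.37 in WT and 3.34, 3.6 and 3.80 in AHR KO in WENR. In d4 ENR it was at 1.84, 2.2 and 1.88 in WT and 2.61 and 2.54 in AHR KO. It fell in both genotypes, with differences of -0.73 ± 0.11 and -0.47 ± 0.11 (limma adjusted p = 0.00013 and 0.0039). In d4 ENR both AHR KO values exceeded the 3 WT values, with a difference of 0.38 ± 0.11 (95% interval 0.15 to 0.62, limma adjusted p = 0.081). By fold enrichment the promoter rose between media in WT (0.30, limma adjusted p = 0.027). In AHR KO that difference was 0.26 (limma adjusted p = 0.083).

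Of the other Amotl2 sites, the intronic region 3 fell in both genotypes, with differences of -0.39 in WT and -0.58 in AHR KO (limma adjusted p = 0.0496 and 0.0079), with no separation of the genotypes in d4 ENR (0.68 to 0.78 in WT, 0.73 and 0.80 in AHR KO). Region 4, just beyond the 3′ end, stood at 1.29 to 1.55 in WT and 1.79 and 1.61 in AHR KO in d4 ENR and passed in no contrast. Region 1, 1391 bp before the gene, was called in 1 library.

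The first annotated start of Amotl1 had no peak in any library. Its 2 promoter regions lay at internal starts. Region 1 (chr9:14559308-14561694) had relative heights of 0.64 to 0.70 in all WENR and 0.50 to 0.52 in all d4 ENR libraries. On this scale the genotypes overlapped in each medium. The fall passed in AHR KO (-0.40 ± 0.14, limma adjusted p = 0.044) and the difference was of like size in WT (-0.37 ± 0.14, adjusted p = 0.053). In d4 ENR, 15.6%, 35.0% and 45.3% of the WT libraries' own regions were lower than this site, against 45.2% and 51.9% for AHR KO. Only chr9:14559717-14559723 lay under a peak in all 10 libraries. How far closeness to the lowest called heights shaped the like d4 ENR values was not tested. Region 5 (chr9:14613000-14615568) had a peak in all 5 WENR libraries and, in d4 ENR, in 0 of 3 WT and 2 of 2 AHR KO libraries, at 0.37 and 0.25. In d4 ENR, 2 of the 42 member regions were called in both AHR KO and no WT library, where 2.84% of all regions were. The other was the intronic Wwc2 region 4, at 0.30 and 0.29. The reverse, a call in all WT and no AHR KO library, held for 0 of 42 and for 0.0864% of all regions.

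Ajuba had 1 broad region over its promoter and first introns (chr14:54572828-54578405), at 1.38 and 1.53 in WT and 1.44, 1.39 and 1.57 in AHR KO in WENR. In d4 ENR it was at 1.13, 0.75 and 0.77 in WT and 1.18 and 0.98 in AHR KO, so that WT replicate 1 lay between the AHR KO libraries. The fall passed in WT (-0.74 ± 0.17, limma adjusted p = 0.0023), and in AHR KO it was -0.44 ± 0.17 (adjusted p = 0.054). The peaks over the promoter covered fewer bases too. They covered 4577 to 5545 bp in WENR, and 2541 to 3035 bp (WT) and 3356 and 3529 bp (AHR KO) in d4 ENR. These widths are sums where a library had 2 peaks there. That held for AHR KO WENR replicate 1, WT d4 ENR replicate 2 and both AHR KO d4 ENR libraries. Because pileup is averaged along a peak, a wider peak lowers it.

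Lats2 was the gene with tested sites that passed in opposite directions between media. Its intronic region 5 (chr14:57729521-57731458) was at 0.63 and 0.74 in WT and 0.62 to 0.66 in AHR KO in WENR, and at 0.49, 0.54 and 0.37 in WT and 0.86 and 0.60 in AHR KO in d4 ENR. It fell in WT (-0.56 ± 0.19, limma adjusted p = 0.029) and had a difference of 0.15 ± 0.19 in AHR KO. The genotype difference in d4 ENR was 0.64 ± 0.19 (95% interval 0.24 to 1.05, limma adjusted p = 0.086), but 0.39 without AHR KO d4 ENR replicate 1 and 0.073 with coverage summed over the region. On the fold enrichment scale described below it was the 1 member region past the threshold between genotypes in d4 ENR (0.64 ± 0.11, limma adjusted p = 0.0080).

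Lats2 region 4 (chr14:57711224-57713356), the weak intronic site printed above, went the other way. It was at 0.17 to 0.23 in all WENR libraries, at 0.45, 0.49 and 0.43 in WT d4 ENR and at 0.34 and 0.32 in AHR KO d4 ENR. It rose in both genotypes, by 1.24 ± 0.18 in WT and 0.74 ± 0.18 in AHR KO (limma adjusted p = 0.000101 and 0.0056), with both AHR KO libraries below WT in d4 ENR. Its fold enrichment was 3.37 to 4.25 in WENR and 2.55 to 4.04 in d4 ENR, and on that scale its difference between media was 0.11 in WT and -0.17 in AHR KO, past the threshold in neither. The rise in WT turned to -0.075 with coverage summed over the region and to -0.32 with pileup scaled to fragments. No base of region 4 lay under a peak in all 10 libraries, and at most 9 shared one. In WT d4 ENR replicate 1 its height of 0.45 had 3.81% of that library's regions below it. In AHR KO WENR replicate 2 a height of 0.17 had 17.8% below it. Heights near the lowest called were thus greater in the former library, and the part of this in the differences was not tested. A distal site beyond the 3′ end (region 2) also had both d4 ENR AHR KO libraries (0.41 and 0.54) below the WT ones (0.55, 0.76 and 0.72), a difference of -0.51 ± 0.19 (limma adjusted p = 0.16). The Lats2 promoter region (region 6, chr14:57744601-57746679), at an internal start, was at 0.99 to 1.29 in WENR, 1.31 to 1.75 in WT and 1.41 and 1.44 in AHR KO in d4 ENR, and passed in no contrast (limma adjusted p = 0.053 in WT and 0.060 in AHR KO between media).

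Wwc2 had 12 regions, most of them weak intronic sites called in part of the libraries. Its promoter (region 12, chr8:47989562-47991271) held 4 TEAD motifs in the whole region. It was at 2.06 and 1.97 in WT and 2.07, 2.22 and 2.14 in AHR KO in WENR, and at 2.02, 1.68 and 1.56 in WT and 2.34 and 2.12 in AHR KO in d4 ENR. Both AHR KO groups lay wholly above WT in their medium, by 0.35 ± 0.12 in d4 ENR (95% interval 0.09 to 0.61, limma adjusted p = 0.12) and 0.09 ± 0.12 in WENR. Between media in AHR KO the difference was 0.05 ± 0.12. The intronic region 7 with the paired TEAD motifs was at 0.72 to 1.11 in WENR, 0.55 to 0.60 in WT and 0.63 and 0.68 in AHR KO in d4 ENR. It fell in both, with differences of -0.54 ± 0.17 in WT and -0.51 ± 0.17 in AHR KO (limma adjusted p = 0.019 and 0.033). Region 11, 2284 bp inside the gene, was called in 9 libraries, at 0.94 to 1.11 in WENR and at 2.00 and 1.78 in WT and 1.54 and 1.93 in AHR KO in d4 ENR, with no peak in WT d4 ENR replicate 1. Its absence there means it entered no test.

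The receptor gene Axl had no peak at its own promoter in any library. The strong region in its window (region 1, chr7:25754169-25756373) lies at the promoter of Hnrnpul1, at 2.80 to 4.80 in all libraries, and it passed in no contrast. Its other sites were at 0.11 to 0.41 (regions 2 and 3, the latter at the promoter of Gm29763). The intronic region 2 had a peak in 4 of 5 WENR and in 0 of 5 d4 ENR libraries. Its relative height was at most 0.15, so that it lay near the limit of what was called.

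Tnfrsf12a shares its region (chr17:23673357-23677635) with the promoters of Thoc6 and Hcfc1r1. In WENR 1 peak of 4199 to 4271 bp spanned all of them, at relative heights of 2.51 to 2.90. In d4 ENR the peak split, and a separate peak covered the start of Tnfrsf12a itself at 2.12, 1.32 and 1.48 in WT and 1.79 and 1.69 in AHR KO, the AHR KO values lying within the WT range (exact permutation test, 2-sided p = 0.8, where 0.2 is the smallest that 2 against 3 libraries allow). The region as a whole, whose highest d4 ENR peak is at the neighbours, passed in no contrast. The distal region 2, 3767 bp before the gene, was called in 8 libraries at 0.78 to 1.27, and in d4 ENR in 1 of 3 WT and 2 of 2 AHR KO libraries.

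Between genotypes in d4 ENR, then, 0 of the 17 regions passed limma, where 0.503% of all regions were higher and 0.745% lower in AHR KO. The study, from counts of reads per peak, reported significantly increased accessibility in AHR KO d4 ENR organoids at Ccn1, Ccn2 and Amotl2. At an unadjusted p under 0.05 in limma there were 7 of 17, beside 20.7% of all regions. The median difference over the 17 was 0.20, beside -0.05 over all regions, and 12 of 17 were above 0 where 41.8% of all regions were. This tally depended on the scale: by fold enrichment the median was -0.081 (-0.040 over all regions) and 8 of 17 were above 0 (42.0% of all regions), with Ccn1 region 3 (-0.25), Ccn2 region 2 (-0.25), Amotl2 region 2 (-0.10) and Ajuba region 1 (-0.088) among those below. The 2 AHR KO values exceeded the 3 WT values at 7 of 17 regions, where 12.9% of all regions did, and were below them at 2 (Lats2 regions 2 and 4), where 18.8% did. The 7 were the Ccn1, Amotl2 and Wwc2 promoters, the upstream Ccn2 site, Amotl2 region 4, Lats2 region 5 and Wwc2 region 7. The count of calls turned on WT d4 ENR replicate 1, the library with the fewest peaks. Without it, 6 regions were higher and 1 lower in AHR KO, where 1249 of all 28205 regions were higher and 1079 lower. The 6 were the promoters of Ccn1 (0.61, limma adjusted p = 0.0100), Wwc2 (0.46, 0.012), Ajuba (0.50, 0.023) and Amotl2 (0.34, 0.045), Ccn2 region 1 (0.63, 0.011) and Lats2 region 5 (0.69, 0.041), and the lower one was Lats2 region 2 (-0.65, 0.042). Without WT d4 ENR replicate 3 there were 2 higher, where 756 of all regions were higher and 1515 lower. Without WT d4 ENR replicate 2, 0 member regions were called, where 2 of all regions were higher and 2 lower.

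**Figure D2:**
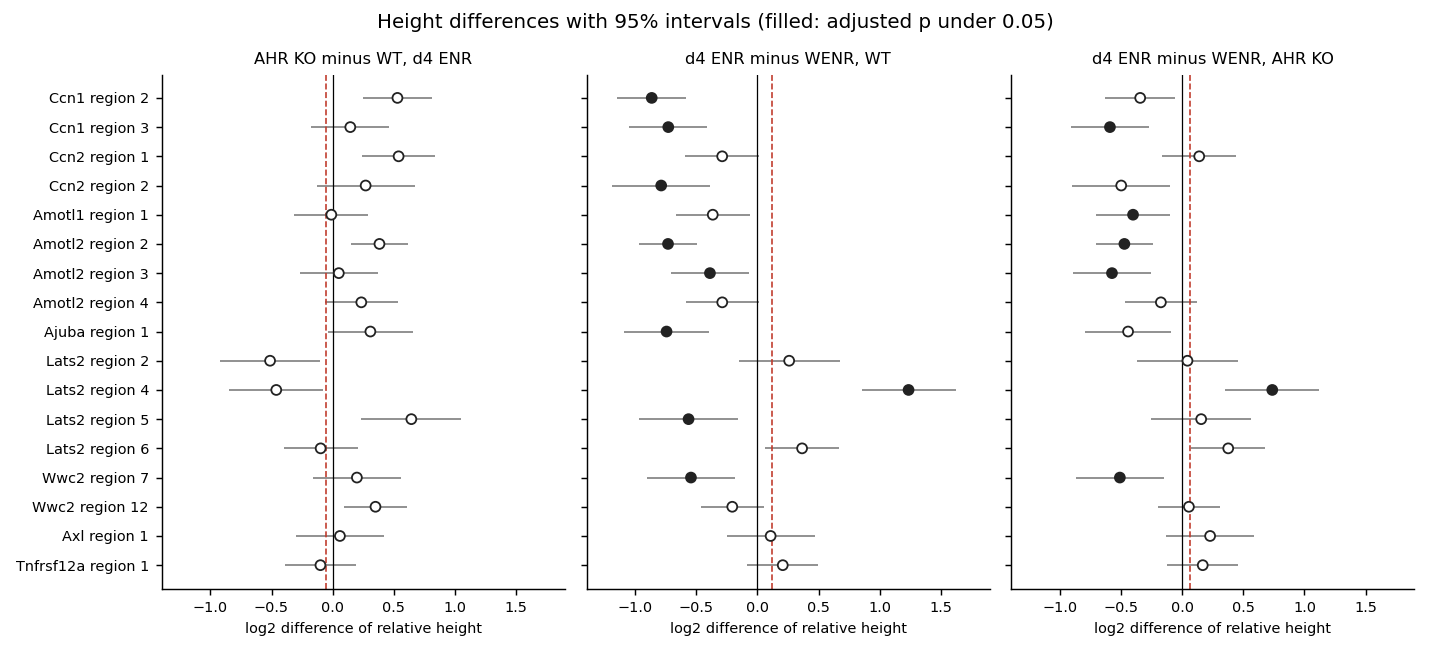
Log2 difference of relative height with its 95% interval (limma) for the 17 regions, between genotypes in d4 ENR and between media in WT and in AHR KO. Filled points have an adjusted p under 0.05, and the dashed line is the median over all 28205 regions. Open points fill the genotype panel, with 12 of 17 above 0 (8 by fold enrichment), whereas 9 points are filled for the medium in WT and 6 in AHR KO, with directions that hold for this scale.

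In WENR, of the 17 regions, 0 passed limma (0.0355% of all regions were higher and 0.131% lower in AHR KO), and 0 had an unadjusted p under 0.05. The median difference was 0.010 and the values ran from -0.29 to 0.24. All AHR KO libraries lay above both WT libraries at 1 region, the Wwc2 promoter, where 14.4% of all regions did. Whether the genotype difference itself differed between media passed at 0 of 17 regions (0% of all regions by limma). At an unadjusted p under 0.05 there were 3 of 17 (Ccn1 region 2, Ccn2 region 1 and Lats2 region 5), beside 13.6% of all regions.

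Covered bases separated the genotypes in d4 ENR at many genes besides the members. In d4 ENR the 2 AHR KO values exceeded the 3 WT values at 5 of the 10 genes (Ccn1, Ajuba, Lats2, Wwc2 and Tnfrsf12a), where 54.3% of all genes were. With lists cut to an equal length, 2 of the 5 were left (Ccn1 and Ajuba), where 52.1% of all genes were. Each of the 5 had an exact permutation p of 0.2, the smallest that the design allows. The median difference over the 10 was 725 bp, beside 411 bp over all genes. In WENR all AHR KO libraries were covered more than both WT libraries at 2 genes (Amotl1 and Wwc2), where 11.8% of all genes were.

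**Figure D3:**
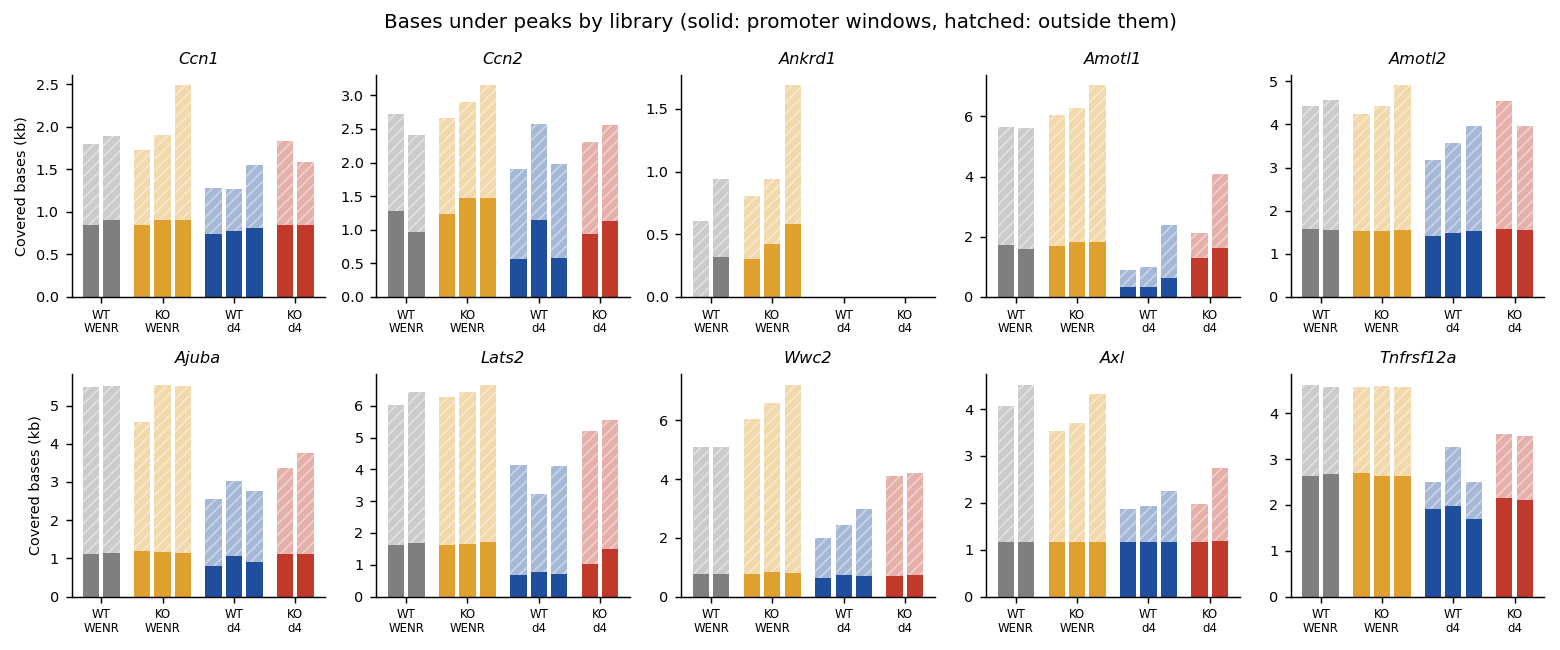
Bases under peaks (y axis, kb) in the window of each gene, by library and group. The solid part lies in promoter windows of any gene, and the hatched part outside them. Ankrd1 had none in d4 ENR, and the bars of Wwc2 and Lats2 differ between groups mainly in their hatched part.

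The genotypes lay apart at Wwc2 in both media: in WENR 5084 and 5093 bp (WT) against 6043, 6577 and 7210 bp (AHR KO), and in d4 ENR 2002, 2422 and 2977 bp against 4113 and 4211 bp. The genotypes no longer lay apart in d4 ENR with lists of equal length or with peaks of -log10 q of at least 5. Its promoter bases were 630 to 733 bp (WT) and 715 and 722 bp (AHR KO) in d4 ENR, so that the difference lay at distal sites. Lats2 was covered by 4146, 3217 and 4095 bp (WT) against 5210 and 5559 bp (AHR KO) in d4 ENR. There the promoter windows took part, with 680 to 759 bp against 1033 and 1485 bp. Amotl1 in d4 ENR had 887, 987 and 2379 bp (WT) and 2115 and 4098 bp (AHR KO), the genotypes overlapping through WT replicate 3. Ccn1, with 1279, 1269 and 1553 bp (WT) and 1837 and 1582 bp (AHR KO), had genotypes that just missed overlap. Ccn2 was covered by 1907 to 2580 bp (WT) and 2304 and 2565 bp (AHR KO), which overlapped.

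The direction of the change with the medium, too, depended on the scale of height. Fold enrichment divides a peak's pileup by a background that rises with the coverage of the surrounding 10000 bp. At the Ccn1 promoter fold enrichment was 3.00 to 3.38 in WENR, 2.87, 4.03 and 3.84 in WT d4 ENR and 3.85 and 4.69 in AHR KO d4 ENR. Tested as above, also over the library's median, fold enrichment in WT rose at 6 of 17 regions and fell at 2 from WENR to d4 ENR, and in AHR KO it rose at 5 and fell at 0. The 2 that fell in WT, Lats2 region 5 (-0.92) and Wwc2 region 7 (-0.46), fell on both scales. Over all 28205 regions fold enrichment was higher in d4 ENR at 7709 and lower at 4271 in WT. In AHR KO it was higher at 2619 and lower at 2088. Scaled to the number of fragments instead of the common regions, 16 of 17 regions fell in WT and 15 of 17 were higher in AHR KO than in WT in d4 ENR, beside shifts of the median of all regions of -1.44 and 0.69. The shares of coverage in peaks given above differed in the same order.

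**Figure D4:**
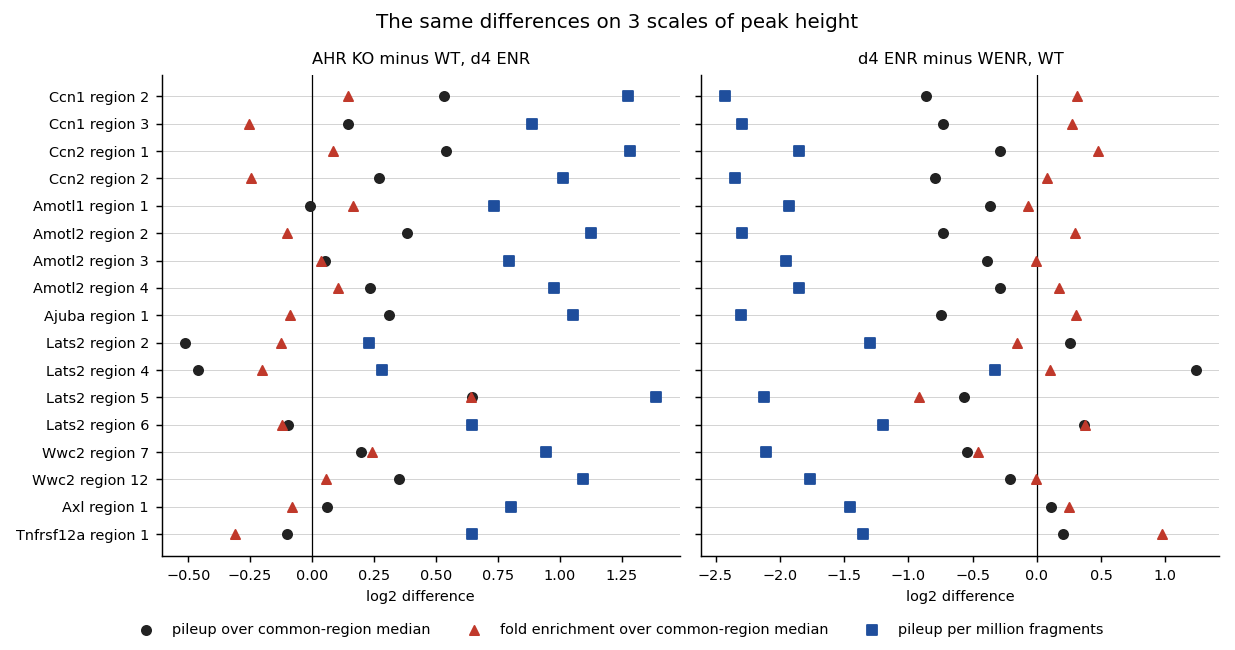
Log2 differences of the 17 regions between genotypes in d4 ENR and between media in WT on 3 scales: pileup over the common-region median (circles), fold enrichment over the common-region median (triangles) and pileup scaled to the fragments of the library (squares). Between media at Ccn1 region 2 the circle lies at -0.87 and the triangle at 0.31, whereas at Lats2 region 5 and Wwc2 region 7 both lie below 0.

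Other genes of the pathway were read from fixed lists. Of 16 further YAP/TAZ targets, 12 had more bases in the 2 AHR KO than in the 3 WT libraries of d4 ENR (54.3% of all genes) and 13 less in all d4 ENR than in all WENR libraries (46.2%). They held 45 regions called in all libraries, of which limma called 1 higher in AHR KO in d4 ENR (0.503% of all regions). Between media in WT, 9 were higher and 17 lower (25.8% and 13.4% of all regions). In AHR KO, 6 were higher and 12 lower between media (18.6% and 10.7%). Myof, a membrane-repair protein, had the widest genotype difference in d4 ENR, with means of 8208 bp (WT) and 13532 bp (AHR KO). Asap1 had the widest between media (-16565 bp), and Igfbp3 had no peak in d4 ENR. Of 14 Hippo and TEAD genes, 8 were covered more in AHR KO in d4 ENR (54.3% of all genes). Of the same 14, 10 were covered less in d4 ENR than in WENR (46.2%). Their 43 common regions held 1 called higher in AHR KO in d4 ENR, and between media 2 higher and 11 lower in WT and 3 higher and 13 lower in AHR KO. The shares of all regions for these calls are those given for the further targets. Vgll4, a TEAD-binding antagonist of YAP, had the widest differences, 5063 bp between genotypes in d4 ENR and -8844 bp between media. Sav1, the scaffold of the upstream kinases, had the narrowest genotype difference, with means of 1033 bp (WT) and 1112 bp (AHR KO), and Mob1a, a LATS co-activator, had the narrowest between media, -123 bp.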

How the data were processed

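Omni-ATAC-seq peak lists of 10 libraries were used. The authors trimmed reads, aligned them to GRCm38 with BWA (nf-core/atacseq) and ran MACS 2.2.7.1 on each library in broad mode (paired fragments, duplicates kept, broad q 0.1, narrow q 0.05, no control, background window 10000 bp). The deposited lists give each peak's pileup (signal: mean fragment coverage along the peak, not scaled for depth), its fold enrichment (a ratio to local background) and its -log10 p-value and -log10 q-value, of which the last ordered peaks for 1 alternative. Counts of reads per region were not analysed here, so the authors' DESeq2 design was replaced by limma 3.58.1 (R 4.3.3, trend, 4 group means, 6 residual degrees of freedom) on log2 relative height. Covered bases were compared by exact permutation. Genes and starts came from GENCODE M21. In simulated data for AHR KO against WT in d4 ENR over 28205 regions, 31% of 100 planted changes of 0.5 and 100% of 100 planted changes of 1 (log2) were recovered. The simulation gave every region and library the same spread, the median over regions. The real libraries differed in quality, so these rates do not measure recovery in the real comparison. No counting interval is given, and the number of libraries limits the precision.

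The members and lists were chosen with earlier results of these data known. Axl, Amotl1, Amotl2, Ccn1, Ccn2, Wwc2, Tnfrsf12a and Ankrd1 were shown by the study as higher in AHR KO d4 ENR RNA. For Ccn1, Ccn2 and Amotl2 the study also reported significantly increased accessibility there from its ATAC-seq data. Ajuba and Lats2 were added as known targets. The direction of the members in d4 ENR is therefore not independent evidence. Regions named were every promoter region, every region past a limma adjusted p of 0.05 between genotypes, and per gene at most the 3 other regions of largest mean height. Further regions (the least of Amotl1, Amotl2, Lats2 and Wwc2) are named only where their call pattern is given. Other lists were limited to 4 named genes.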

Additional observations from a re-analysis of the deposited data

How the results depend on the processing

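Counts of member genes and regions were recomputed under each alternative. With lists cut to an equal length of 33433 peaks, 2 genes were covered more in AHR KO in d4 ENR (52.1% of all genes; Lats2, Wwc2 and Tnfrsf12a were lost), 1 in WENR (8.58%), and 4 were covered less in d4 ENR than in WENR (30.9%). Over the gene body alone, the last 2 counts were both 4 (11.8% and 40.2%). Leaving out 1 library in turn gave 5 to 8 genes covered more in AHR KO in d4 ENR (8 without WT d4 ENR replicate 3, where 75.2% of all genes were), 2 to 4 in WENR and 7 to 9 less in d4 ENR. With every library kept, the last 2 patterns held for 11.8% and 46.2% of all genes. Their shares with a library left out are not given here. Member regions higher in AHR KO in d4 ENR numbered 1 by fold enrichment (739 of all 28205 regions) and 2 by quantile normalization (533, chosen after seeing the data). They numbered 15 with pileup scaled to fragments (20123 of all regions). With 1 library left out of a group of 3 they numbered 0 to 6, where 2 to 1249 of all regions were higher. Between media, with pileup scaled to fragments, 16 member regions were lower in d4 ENR in both genotypes, where 26245 (WT) and 21174 (AHR KO) of all regions were. With summed coverage 2 changed in AHR KO, both lower, where 2363 of all regions were lower and 3413 higher. With 1 library left out they were 5 to 11 in WT and 2 to 10 in AHR KO, the lowest without WT WENR replicate 2 and AHR KO d4 ENR replicate 1. Member regions with a genotype effect that differed between media numbered 6 with pileup scaled to fragments, where 3829 of all regions had a higher one in d4 ENR.

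Differences with an unadjusted p under 0.05 turned sign at several regions. Between genotypes in d4 ENR these were Amotl2 region 2 by fold enrichment (-0.10), Lats2 region 2 (0.23) and region 4 (0.28) with pileup scaled to fragments, and Lats2 region 4 by summed coverage (0.54). Between media in WT, fold enrichment gave Ccn1 regions 2 and 3 (0.31 and 0.28), Ccn2 region 2 (0.075), Amotl2 region 2 (0.30) and Ajuba region 1 (0.30). Summed coverage gave Lats2 regions 4, 5 and 6 (-0.075, 0.13 and -0.023), and pileup scaled to fragments Lats2 regions 4 and 6 (-0.32 and -1.19). In AHR KO, fold enrichment gave Ccn1 regions 2 and 3 (0.47 and 0.0083), Ccn2 region 2 (0.059), Amotl1 region 1 (0.11), Amotl2 regions 2 and 3 (0.26 and 0.14), Ajuba region 1 (0.22) and Lats2 region 4 (-0.17). Pileup scaled to fragments gave Lats2 regions 4 and 6 (-0.14 and -0.50). The cause was not tested.

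Deviations of same-numbered libraries from their group means correlated at -0.12, -0.0015, -0.080 and -0.11 between media of 1 genotype and at 0.32 and 0.039 (WENR) and 0.28 and 0.16 (d4 ENR) between genotypes. Not every pair was over 0.1 in either set, so the numbers were not taken to pair the samples. In groups of 2 libraries the deviations are mirror images, which limits what these correlations can show. A further fit took the replicate number as a block shared by both genotypes, so it does not test pairing within 1 genotype. With this replicate block, 0 member regions were called between genotypes in either medium. Of all regions, 193 were higher and 328 lower in AHR KO in d4 ENR, and 2 and 17 in WENR. Between media, 2 member regions were higher and 8 lower in WT, where 7758 and 3653 of all regions were. In AHR KO 1 was higher and 3 lower, where 4684 and 2717 of all regions were. The genotype effect differed between media at 0 member regions (0 of all regions). In each of the same-numbered pairs, 7 member genes were covered less in d4 ENR. The share of all genes in these pairs is not given here. Without pairing, 46.2% of all genes were lower in every d4 ENR than in every WENR library. The low pileup of d4 ENR libraries limits the calling of weak sites there.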
